A study of Mus musculus with 8 samples.

Results

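C-type lectin receptors were read here as the mouse genes named Clec followed by a number, or Cd209a to Cd209g. This rule goes by name, so it takes in the intracellular Clec16a and leaves out other C-type lectin genes such as Mrc1. The table held 40 genes under the rule among 55487, and the 39 that are listed as protein-coding were taken as members. They were read in 4 libraries of untreated BMDC (dendritic cells grown from bone marrow of wild-type C57BL/6J female mice of 6 to 8 weeks, 10 days in 20 ng/ml GM-CSF) and in 4 libraries of BMDC-fer. BMDC-fer came from the same kind of culture, were stained with CellTraceViolet, were mixed for 4 h with ferroptotic Jurkat cells and were then sorted as engulfing cells. Jurkat is a human T-cell leukemia line, killed here with ML162, a compound that triggers ferroptosis, at 0.5 µM over 14 h. No sort is described for the untreated BMDC, so engulfment, co-culture and sorting cannot be told apart in this comparison, and neither can more RNA per cell and more cells of a kind.

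C-type lectin receptors recognise sugars, lipids and proteins on microbes and on dying cells through a shared extracellular fold. Activating members such as Dectin-1 and Dectin-2 signal through the kinase Syk and the adaptor Card9, alone or with the chain Fcer1g, while members such as DCIR carry inhibitory motifs that recruit phosphatases. On dendritic cells they serve uptake of antigen, sensing of damage and contact with other leukocytes, and several of them are used to tell dendritic cell subsets apart.

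Of the 39 members, 23 had enough reads for a test, in an edgeR fit over all 15411 genes that did. In BMDC-fer, 4 members were induced and 2 were repressed (BH-adjusted p up to 0.05, with a log2 change of at least 0.58 either way), while 9.38% of all tested genes were called, 3.47% as higher and 5.91% as lower. The induced members were Clec7a, Clec4d, Clec4n and Clec4a2, and the repressed ones were Clec2i and Clec4a4. With the replicate number as a block, 12 members were called, 8 higher and 4 lower, against 13.0% of all tested genes (4.85% and 8.13%), and Clec1a, Clec1b, Clec9a, Clec2d, Cd209a and Cd209c joined the first 6. The block assumes that libraries of the same number are pairs, which was not established. DESeq2 called 9 of the 23, 6 higher and 3 lower, adding Clec1a, Clec2d and Clec2f. It called 8.39% of the 28784 genes it tested (3.09% and 5.30%). Those include genes with too few reads for the edgeR filter, so this share is not a like background for the 23 members. The median log2 fold change of the 23 members was 0.23 and that of all tested genes was 0.000687.

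Replicates 1 and 2 of each group formed 1 set and replicates 3 and 4 another: libraries of a set differed by a chi-square of 9.06 to 41.0 for each gene, and libraries of different sets by 134 to 346. The labels give no batch, and effects within each set are therefore printed beside the pooled ones for the members in which they differ. Marker genes also moved with the groups, and their part in the results was not tested. Of all tested genes 5.91% were repressed in BMDC-fer, or 8.13% with the replicate block. Of 12 dendritic cell markers 4 were repressed in BMDC-fer, or 9 with the block. Their log2 fold change was below 0 for all 12, with a median of -1.52 over the list. The sum of the list was 7980 to 18200 CPM (read counts scaled to library size) in BMDC and 3590 to 8840 CPM in BMDC-fer. Of 11 macrophage and monocyte markers 1 was repressed, with and without the block, and the log2 fold change was above 0 for 8. Their sum (14900 to 30100 CPM and 26300 to 36800 CPM) was mostly Lyz2. Lyz2 averaged 20340 CPM in untreated BMDC against 29580 CPM in BMDC-fer and was not called (BH-adjusted p = 0.277 in edgeR). Of 12 neutrophil markers 5 were repressed, or 9 with the block, and the log2 fold change was below 0 for 11, with a median of -2.60 over the list. Their sum (617 to 1260 CPM and 742 to 1470 CPM) was mostly Mmp8, which averaged 765 CPM in untreated BMDC against 1081 CPM in BMDC-fer and was not called. All 12 dendritic cell markers were detected in BMDC, from Cd74 at 6041 CPM, H2-Ab1 at 2113 CPM and Itgax at 1111 CPM to Zbtb46 at 19.9 CPM and Flt3 at 3.92 CPM. The other lists were low: mast cell and basophil markers summed to 33.5 to 65.2 CPM in untreated BMDC and 14.6 to 33.0 CPM in BMDC-fer, B cell markers to 0.369 to 1.44 CPM and 0.405 to 0.602 CPM, NK cell markers to 0.0499 to 0.358 CPM and 0.122 to 0.236 CPM, and plasmacytoid dendritic cell markers to 153 to 187 CPM and 114 to 246 CPM. The plasmacytoid sum was mostly Bst2, which averaged 149.5 and 162.8 CPM and was not called. T cell markers, the type of the Jurkat cells, summed to 32.3 to 58.1 CPM in untreated BMDC and 29.8 to 54.9 CPM in BMDC-fer. Most of that sum was Cd28, at 31.9 and 38.8 CPM and not called. The other 3 tested T cell markers were lower in BMDC-fer on average: Cd6 at 7.74 and 1.39 CPM, Cd3g at 1.73 and 0.135 CPM, and Lck at 0.870 and 0.287 CPM. In BMDC replicates 1 to 4 Cd6 was 21.5, 4.36, 1.96 and 3.14 CPM and Cd3g 4.40, 1.31, 0.260 and 0.948 CPM. For Cd6 and Cd3g the groups overlapped. Of the tested genes of these lists, Lck among the T cell markers and Spib among the plasmacytoid ones were repressed, and with the block 3 T cell, 1 plasmacytoid and 1 mast cell marker. The T-cell receptor gene Trac stayed at or under 3 counts in every library, as did the NK cell genes Ncr1, Eomes and Prf1.

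The level of the members, in CPM per kilobase of exon, spread over more than 3 orders of magnitude in BMDC. Clec4n, which encodes Dectin-2, was the most abundant at 839 ± 61.7 CPM per kilobase (SD, n = 4), followed by Clec7a, which encodes Dectin-1, at 249 ± 36.9 and by Clec4d, which encodes MCL, at 86.9 ± 24.4. Clec10a (48.3 ± 2.58) and Clec4a2 (40.9 ± 4.61) came next. From Cd209c at 26.0 ± 28.1 down to Clec12a at 13.9 ± 2.21, the library values of each of these 7 members overlapped with those of its neighbours in this order. At the low end lay Clec11a, Clec2l and Clec1a, with 0.561, 0.421 and 0.396 CPM per kilobase. In BMDC-fer the first 3 places were held by the same 3 genes, with 1545 ± 174, 520 ± 125 and 181 ± 34.6 CPM per kilobase. The widest moves were those of Cd209c from place 6 to 14, Clec9a from 18 to 12 and Cd209a from 14 to 19. Clec10a stood at place 7 in place of 4, and Clec2i at place 17 in place of 13.

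**Figure D1:**
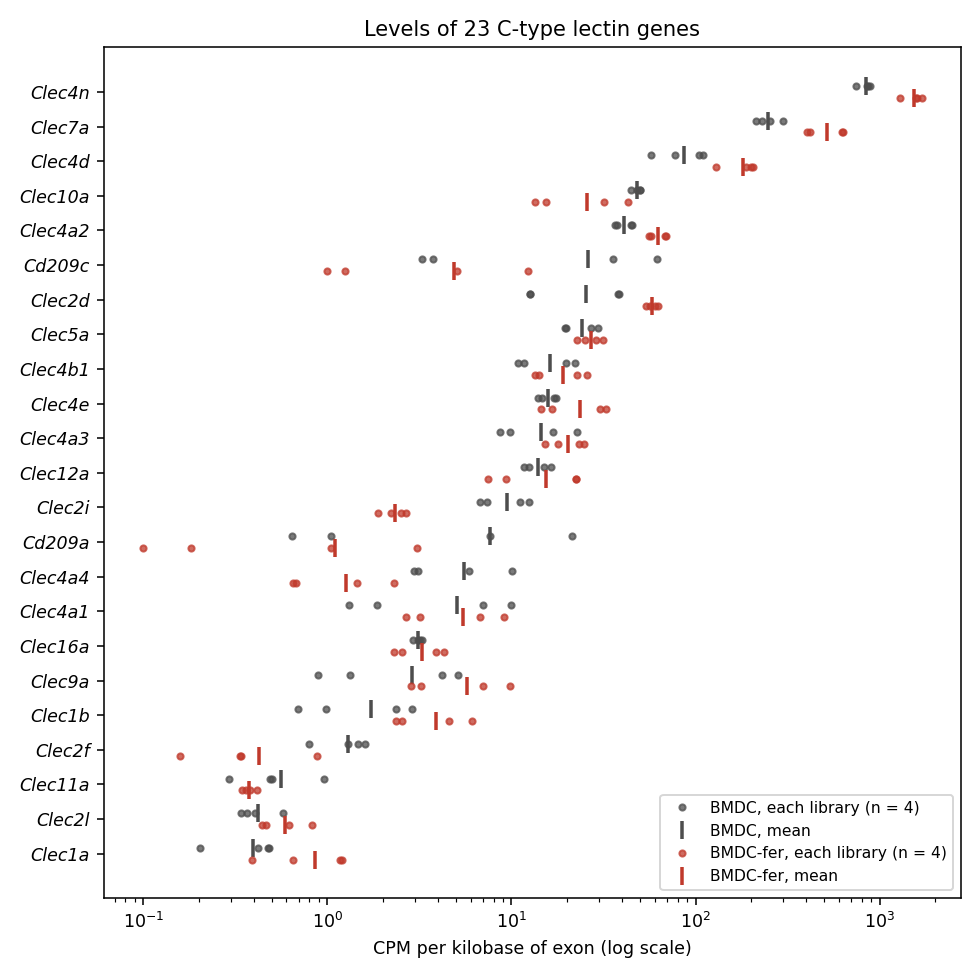
Each row is 1 of the 23 tested members, the axis is CPM per kilobase of exon on a log scale, small dots are libraries and bars are group means (BMDC grey, BMDC-fer red). Clec4n and Clec7a stand above all other members in every library, and the dots of Cd209a and Cd209c are the most widely spread.

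Summed over all members, the family took 2713 ± 136 CPM in untreated BMDC and 4632 ± 479 CPM in BMDC-fer (mean ± SD of 4 libraries). Clec4n and Clec7a together made up 68.1% ± 2.65 of that sum in BMDC and 76.7% ± 3.98 in BMDC-fer. The sum of the other members was 865 ± 55.7 CPM and 1068 ± 93.3 CPM. The rise of the family total was therefore mostly that of its most abundant genes.

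Of the 39 members 24 lie on chromosome 6 and 10 on chromosome 8 (GENCODE M21, GRCm38). On chromosome 6, 9 of them stand in a stretch of 368 kilobases from 122921848 to 123289870 that holds the Dectin-2 and DCIR genes, and 12 in a stretch of 810 kilobases from 128662385 to 129472779, in the natural killer gene complex, that holds the Clec2 genes and the Dectin-1 cluster. The 8 tested members of the first stretch gave 3 induced and 1 repressed gene, and the 8 tested members of the second gave 1 of each kind. The repressed Clec4a4 lies between Clec4a3 and Clec4b1, neither of which was called.

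**Figure D2:**
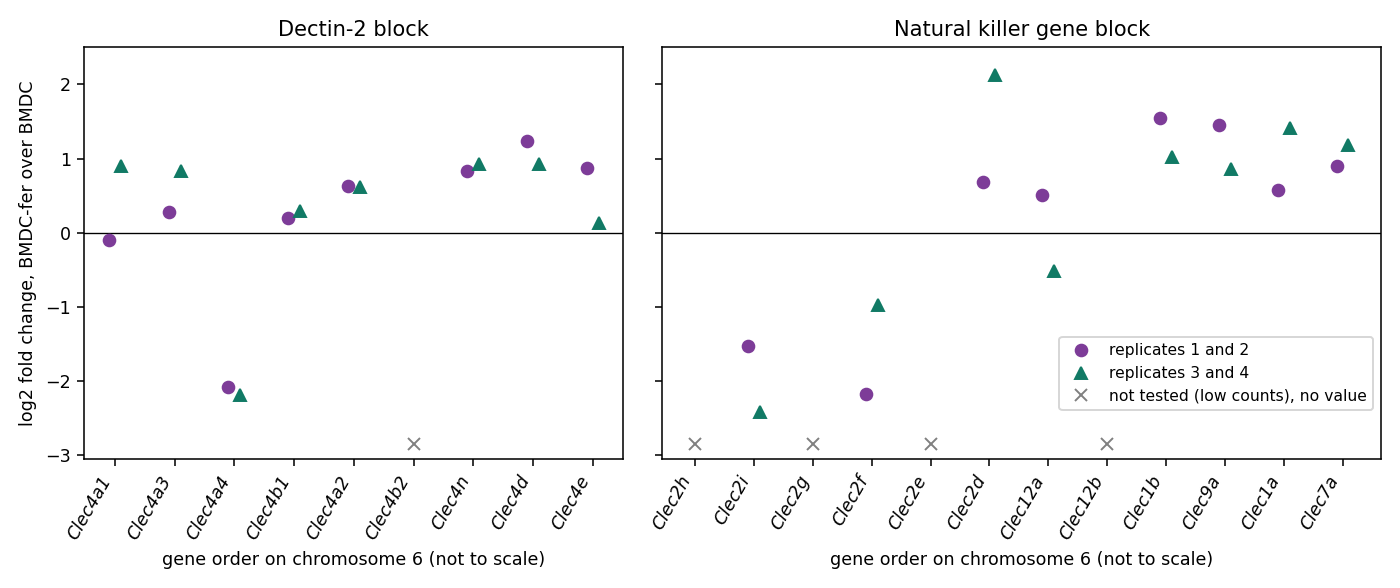
Tested members of both stretches of chromosome 6 are drawn in gene order, not to scale, with the log2 fold change of BMDC-fer over BMDC within replicates 1 and 2 (circles) and within replicates 3 and 4 (triangles); crosses at the foot mark members with too few counts. From Clec1b to Clec7a all points lie above 0, while both points of Clec4a4, Clec2i and Clec2f lie below 0.

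Promoters are printed for members on which the results turn and whose RefSeq window (GRCm38.p6, the 250 bases before the start) holds no exon base in GENCODE M21, 5′ to 3′ on the gene's strand. Clec7a and Clec4d were induced, Clec4e is the neighbour of Clec4d that was not called, Clec2i was repressed, and Cd209a was lower in BMDC-fer with the replicate block. Capitals mark matches to any of 6 motifs searched on both strands.
Clec7a, chr6:129472780-129473029, minus strand: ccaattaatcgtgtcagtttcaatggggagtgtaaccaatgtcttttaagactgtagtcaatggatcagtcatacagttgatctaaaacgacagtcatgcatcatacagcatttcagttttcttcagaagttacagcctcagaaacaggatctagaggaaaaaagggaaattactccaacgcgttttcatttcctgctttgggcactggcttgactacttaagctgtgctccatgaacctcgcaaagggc
Clec4d, chr6:123261857-123262106, plus strand: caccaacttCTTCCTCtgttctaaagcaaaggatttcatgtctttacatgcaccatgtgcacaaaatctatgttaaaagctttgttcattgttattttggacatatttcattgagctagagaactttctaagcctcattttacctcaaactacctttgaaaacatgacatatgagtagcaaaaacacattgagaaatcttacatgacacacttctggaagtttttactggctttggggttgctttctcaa
Clec4e, chr6:123289872-123290121, minus strand: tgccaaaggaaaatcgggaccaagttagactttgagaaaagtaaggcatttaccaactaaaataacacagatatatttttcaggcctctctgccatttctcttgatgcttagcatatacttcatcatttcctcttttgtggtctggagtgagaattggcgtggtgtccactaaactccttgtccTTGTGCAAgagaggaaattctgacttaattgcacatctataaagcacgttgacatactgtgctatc
Clec2i, chr6:128887337-128887586, plus strand: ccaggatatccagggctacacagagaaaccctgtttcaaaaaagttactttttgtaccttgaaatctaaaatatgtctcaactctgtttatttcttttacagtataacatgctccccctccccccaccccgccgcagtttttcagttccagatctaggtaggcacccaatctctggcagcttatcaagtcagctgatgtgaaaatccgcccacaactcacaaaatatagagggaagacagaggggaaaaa
Cd209a, chr8:3748985-3749234, minus strand: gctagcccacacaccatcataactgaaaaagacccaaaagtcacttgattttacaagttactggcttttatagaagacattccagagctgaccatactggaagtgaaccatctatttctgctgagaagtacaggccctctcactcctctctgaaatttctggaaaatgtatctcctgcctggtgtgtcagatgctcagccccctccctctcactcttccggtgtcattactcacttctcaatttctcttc
The motifs were those of PU.1 (GAGGAAG, in 10.6% of all 32851 RefSeq windows of this length), AP-1 (TGANTCA, 6.75%), ISRE (GAAANNGAAA, 2.98%), NF-kB (GGGNNTTNCC, 4.11%), C/EBP (TTGCNNAA, 9.56%) and the antioxidant response element (TGACNNNGC, 10.2%). The window of Clec4d held a PU.1 match that begins 241 bases before the start, and that of Clec4e a C/EBP match 66 bases before it. The windows of Clec7a, Clec2i and Cd209a held none of these letters. Over the 18 of 23 tested members that have a window, 5 held a PU.1 match, 4 a C/EBP match, 2 an ISRE match, and 1 each an AP-1, an NF-kB and an antioxidant element match. These are matches of letters in these windows. Clec4n, Clec4a4, Clec10a, Clec1a and Clec2f have no window in the table.

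Of the 4 genes of the Dectin-2 stretch that were grouped here as activating receptors, 2 were induced in BMDC-fer. Clec4n (chromosome 6, 123229843 to 123247021) encodes Dectin-2, a receptor for fungal mannans that signals through Fcer1g. Its expression was 1226, 1063, 1216 and 1261 CPM in BMDC replicates 1 to 4 and 2242, 1841, 2416 and 2277 CPM in BMDC-fer replicates 1 to 4. Every BMDC-fer library lay above every BMDC library. The log2 fold change (log2FC) was 0.88 ± 0.14 (SE), with a Benjamini-Hochberg adjusted value (BH-adjusted p) of 0.00751 in edgeR, a rise of 1.84-fold, with 0.83 for replicates 1 and 2 against 0.92 for replicates 3 and 4.

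Clec4d (chromosome 6, 123262111 to 123275265) encodes MCL, which pairs with Mincle and binds mycobacterial glycolipid. It was 123, 91.2, 166 and 175 CPM in BMDC replicates 1 to 4 and 299, 208, 327 and 322 CPM in BMDC-fer replicates 1 to 4. The groups did not overlap, and within each group replicate 2 was the lowest. The log2FC was 1.06 ± 0.23 (SE, BH-adjusted p = 0.0243), and the call was lost without BMDC-fer replicate 3 or without BMDC-fer replicate 4, with adjusted p up to 0.0679.

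Clec4e encodes Mincle, which binds trehalose dimycolate and a nuclear protein released by dead cells. It was 84.8, 86.5, 68.8 and 72.7 CPM in untreated BMDC and 163, 150, 82.3 and 72.3 CPM in BMDC-fer, in replicate order. Replicates 1 and 2 of BMDC-fer stood above all BMDC libraries, and replicates 3 and 4 overlapped with them. Clec4e was not called over all libraries (log2FC 0.58 ± 0.26 SE, BH-adjusted p = 0.178). Its effect was 0.87 in replicates 1 and 2 (BH-adjusted p = 0.000172) and 0.13 in replicates 3 and 4 (0.243), and for this difference the interaction term in edgeR gave a BH-adjusted p of 0.00186. The genes of MCL and Mincle are adjacent, and over all libraries only Clec4d of this pair was called.

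Clec4b1, a receptor of the same stretch that also couples to Fcer1g, was 15.5, 17.5, 9.23 and 8.53 CPM in untreated BMDC and 17.8, 20.1, 11.1 and 10.6 CPM in BMDC-fer. Its values followed the set of replicates more than the group, and it was not called (log2 fold change 0.23, BH-adjusted p = 0.641). Of the 50-base words of its longest transcript 9.7% also occur in Clec4a2, so its count is uncertain.

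The DCIR genes, which encode inhibitory receptors or close relatives of them, moved in both directions. Clec4a2 (chromosome 6, 123106428 to 123143999), which encodes the inhibitory receptor DCIR, was 107, 109, 133 and 130 CPM in untreated BMDC and 164, 169, 203 and 199 CPM in BMDC-fer. All BMDC-fer libraries were higher than all BMDC libraries. The log2FC was 0.62 ± 0.12 (SE, BH-adjusted p = 0.0166), the smallest of the called members, and the same in both sets of replicates (0.62 and 0.62). The call was lost on leaving out any of 3 libraries (BMDC replicate 1, BMDC-fer replicate 3, BMDC-fer replicate 4), with an adjusted p of at most 0.0545.

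Clec4a4 (chromosome 6, 122990367 to 123024105) encodes DCIR2, the antigen of the antibody 33D1 on a subset of conventional dendritic cells. It was 7.79, 4.57, 2.29 and 2.42 CPM in untreated BMDC and 1.78, 1.13, 0.503 and 0.524 CPM in BMDC-fer. The groups did not overlap, and in each of them replicates 1 and 2 were the higher libraries. The log2FC was -2.11 ± 0.55 (SE, BH-adjusted p = 0.0412), and -2.07 and -2.19 within the sets of replicates. The call was lost on leaving out any of 6 libraries (all but BMDC replicate 3 and BMDC-fer replicate 1), with an adjusted p of at most 0.112, and it had an adjusted p of 0.00498 with the replicate block. Of its 50-base words 15.7% also occur in Clec4a2, which rose.

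Clec4a3 was 22.2, 30.3, 11.6 and 13.0 CPM in untreated BMDC and 30.8, 33.0, 20.1 and 23.9 CPM in BMDC-fer. It was not called (log2 fold change 0.48, BH-adjusted p = 0.336, and 0.0600 with the replicate block). Clec4a1 averaged 7.86 ± 6.52 CPM in untreated BMDC and 8.46 ± 4.73 CPM in BMDC-fer (mean ± SD of 4 libraries), and its direction differed between the sets of replicates (-0.10 and 0.90). Over the 4 tested members of the DCIR list, then, 1 rose and 1 fell.

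**Figure D3:**
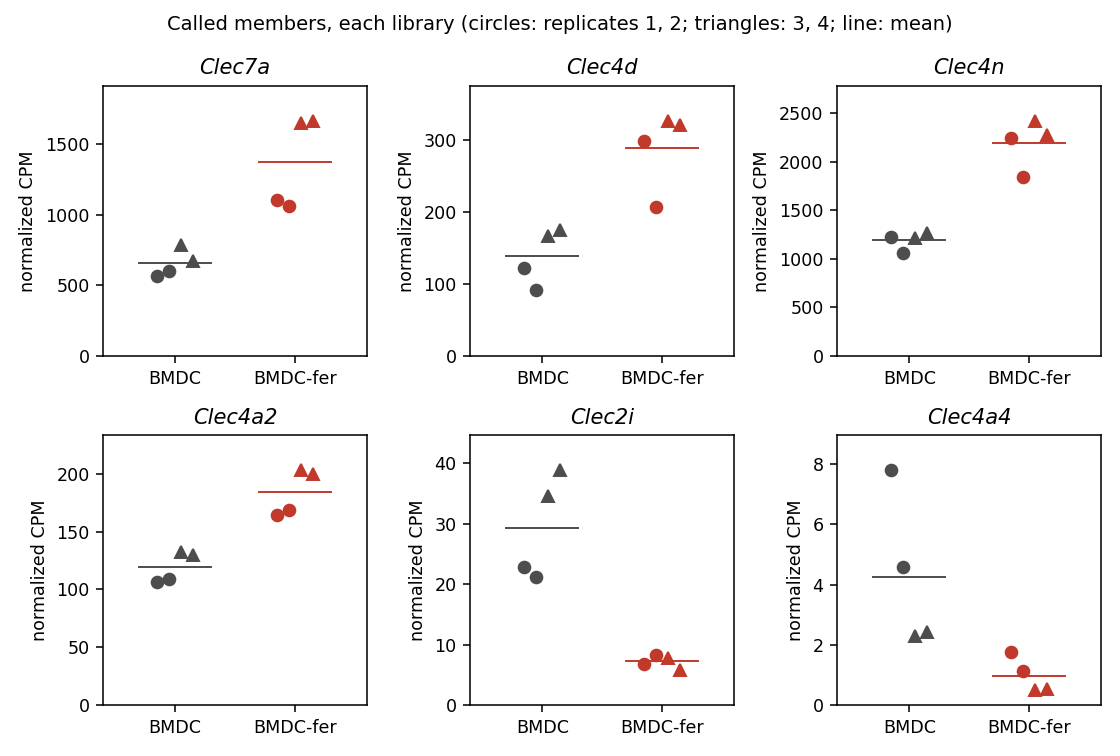
Normalized CPM of the 6 called members in each library, from 0, with circles for replicates 1 and 2, triangles for replicates 3 and 4 and a line at the group mean. No BMDC-fer point of Clec7a, Clec4d, Clec4n or Clec4a2 falls to the level of BMDC, and no BMDC-fer point of Clec2i or Clec4a4 reaches it.

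Of 5 tested genes of the Dectin-1 cluster 1 was called without the replicate block and 4 with it, all induced. Clec7a (chromosome 6, 129461591 to 129472779) encodes Dectin-1, the receptor for fungal β-glucan, which signals through Syk. It was 565, 603, 787 and 673 CPM in untreated BMDC and 1107, 1064, 1648 and 1664 CPM in BMDC-fer. The groups were well apart, and in each of them replicates 3 and 4 were the higher libraries. The log2FC was 1.06 ± 0.20 (SE, BH-adjusted p = 0.0138), 0.89 for replicates 1 and 2 against 1.18 for replicates 3 and 4, and the call held whichever library was left out.

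Clec9a encodes DNGR-1, which binds actin filaments exposed by dead cells and serves cross-presentation in conventional dendritic cells. It was 2.93, 4.36, 16.9 and 13.8 CPM in untreated BMDC and 10.7, 9.42, 23.2 and 32.4 CPM in BMDC-fer. The first pair of BMDC-fer libraries lay below the second pair of BMDC libraries, so the groups overlapped although BMDC-fer was the higher library for each of the 4 replicate numbers. Without the block Clec9a was not called (log2FC 0.99 ± 0.61 SE, BH-adjusted p = 0.307), and with it the log2FC was 1.16 ± 0.23 (SE, BH-adjusted p = 0.0266).

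Clec1b encodes CLEC-2, a receptor for podoplanin best known from platelets. It was 3.55, 5.01, 14.7 and 12.1 CPM in untreated BMDC and 12.9, 12.1, 23.5 and 31.2 CPM in BMDC-fer. It was called with the replicate block (log2FC 1.29 ± 0.21 SE, BH-adjusted p = 0.0144) and not without it (1.17, adjusted p = 0.151). Its values were close to those of its neighbour Clec9a in every library, with a ratio of Clec1b to Clec9a between 0.870 and 1.29 over the 8 libraries. The annotations of these neighbours overlap on the same strand, over 3.6% of the exon bases of Clec1b and 5.6% of those of Clec9a, so their counts are uncertain where reads fall in the overlap.

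Clec1a, whose product binds fungal melanin, averaged 2.05 ± 0.678 CPM in untreated BMDC and 4.44 ± 2.09 CPM in BMDC-fer (mean ± SD of 4 libraries). In edgeR it was called with the replicate block and not without it (log2 fold change 1.05 and 1.11, BH-adjusted p = 0.0380 and 0.115), and DESeq2 called it without the block (adjusted p = 0.0448). Clec12a, which encodes an inhibitory receptor for uric acid crystals, was 90.9, 82.8, 68.6 and 64.8 CPM in untreated BMDC and 124, 124, 41.3 and 51.8 CPM in BMDC-fer. BMDC-fer replicates 1 and 2 stood above all BMDC libraries and replicates 3 and 4 below all of them. The effect of Clec12a was 0.51 in replicates 1 and 2 (BH-adjusted p = 0.00500) and -0.52 in replicates 3 and 4 (0.00350), with an adjusted p of the difference of 0.00114.

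The NKR-P1 ligands, which are read by receptors of NK cells and other lymphocytes, included the repressed member with the smallest adjusted p. Clec2i (chromosome 6, 128887588 to 128898167) encodes Clr-g, a ligand of NKR-P1F. It was 22.9, 21.1, 34.5 and 38.8 CPM in untreated BMDC and 6.90, 8.37, 7.86 and 5.89 CPM in BMDC-fer. The BMDC-fer libraries lay close together and all below BMDC, while BMDC differed between its sets of replicates. The log2FC was -2.01 ± 0.23 (SE, BH-adjusted p = 0.00298), and the call held in every alternative run over all libraries or with 1 left out, with adjusted p of at most 0.0164. The change amounted to -1.53 for replicates 1 and 2 against -2.41 for replicates 3 and 4 (interaction term in edgeR, BH-adjusted p = 0.0119).

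Clec2d encodes Clr-b, the ligand of the inhibitory receptor NKR-P1B. It was 46.6, 46.1, 15.4 and 15.3 CPM in untreated BMDC and 75.7, 72.9, 65.3 and 69.0 CPM in BMDC-fer. Every BMDC-fer library was higher than every BMDC library, and BMDC-fer values were alike where BMDC values differed by 3.02-fold between the sets of replicates. Clec2d was not called over all libraries (log2FC 1.20 ± 0.38 SE, BH-adjusted p = 0.0754) and was called with the replicate block (1.40, standard error 0.32, BH-adjusted p = 0.0357). The change amounted to 0.68 for replicates 1 and 2 against 2.13 for replicates 3 and 4 (interaction term in edgeR, BH-adjusted p = 6.57e-05). Clec2f fell short of a call from 0.847 ± 0.234 CPM to 0.281 ± 0.204 CPM (mean ± SD of 4 libraries, BH-adjusted p = 0.0663), and Clec2l was 0.601 ± 0.153 CPM and 0.837 ± 0.252 CPM. The receptor genes of these ligands were also read: Klrb1f, for NKR-P1F, averaged 5.01 CPM in untreated BMDC and 0.967 CPM in BMDC-fer (BH-adjusted p = 0.201, and 0.00519 with the replicate block), and Klrb1b, for NKR-P1B, 8.10 CPM and 1.63 CPM (0.0910, and 0.00651 with the block).

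The DC-SIGN family, receptors for mannose and fucose on pathogens and on other leukocytes, varied most between replicates. Cd209a, the mouse gene most often used as DC-SIGN, was 33.7, 12.1, 1.66 and 1.02 CPM in untreated BMDC and 4.88, 1.67, 0.288 and 0.157 CPM in BMDC-fer. For each replicate number BMDC-fer was the lower library, and the groups overlapped because BMDC replicates 1 and 2 were on average 17.1-fold above replicates 3 and 4. The counts of Cd209a in BMDC-fer replicates 3 and 4 were 12 and 6. Its log2 fold change was -2.78 without the block (standard error 1.29, BH-adjusted p = 0.186) and -2.74 with it (standard error 0.17, BH-adjusted p = 0.00384), and -2.79 and -2.56 within the sets of replicates.

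Cd209c was 123, 71.1, 7.50 and 6.54 CPM in untreated BMDC and 24.6, 10.1, 1.99 and 2.49 CPM in BMDC-fer. Its pattern was that of Cd209a at a higher level. The log2 fold change was -2.14 with the block (standard error 0.24, BH-adjusted p = 0.00631) and -2.41 without it (standard error 1.12, BH-adjusted p = 0.185). Of its 50-base words 22.4% occur in transcripts of other genes, which are not members of the family, so its count is uncertain. Cd209b, Cd209d, Cd209e, Cd209f, Cd209g and Clec4g did not pass the filter. In Cd209d, the highest of these, counts were 31, 10, 0 and 0 in BMDC and 18, 7, 1 and 0 in BMDC-fer, which again placed the counts in replicates 1 and 2.

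Clec10a encodes MGL1, a receptor for terminal galactose and N-acetylgalactosamine that marks a part of the conventional dendritic cells and alternatively activated macrophages. It was 140, 146, 130 and 145 CPM in untreated BMDC and 91.8, 125, 44.4 and 38.7 CPM in BMDC-fer. All BMDC-fer libraries were lower than all BMDC libraries, without a call (log2FC -0.90 ± 0.35 SE, BH-adjusted p = 0.120, and 0.0601 with the replicate block). The change amounted to -0.40 for replicates 1 and 2 against -1.72 for replicates 3 and 4 (interaction term in edgeR, BH-adjusted p = 0.00118). Of its 50-base words 10.6% also occur in Mgl2, its paralog.

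Clec5a encodes MDL-1, which couples to the adaptor DAP12. It was 76.4, 75.2, 104 and 114 CPM in untreated BMDC and 121, 111, 96.2 and 87.5 CPM in BMDC-fer, which is higher in BMDC-fer for replicates 1 and 2 and lower for replicates 3 and 4 (0.61 and -0.25 on the log2 scale, interaction term in edgeR, BH-adjusted p = 0.000874). Clec16a, an intracellular protein of endosomes and mitophagy in spite of its name, was 24.5, 27.2, 26.5 and 26.1 CPM in untreated BMDC and 21.3, 19.3, 36.2 and 32.5 CPM in BMDC-fer. It showed the opposite pattern (-0.35 and 0.39, interaction term in edgeR, BH-adjusted p = 0.00433). Clec11a, a secreted growth factor, averaged 1.67 ± 0.844 CPM and 1.12 ± 0.0881 CPM (mean ± SD of 4 libraries).

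**Figure D4:**
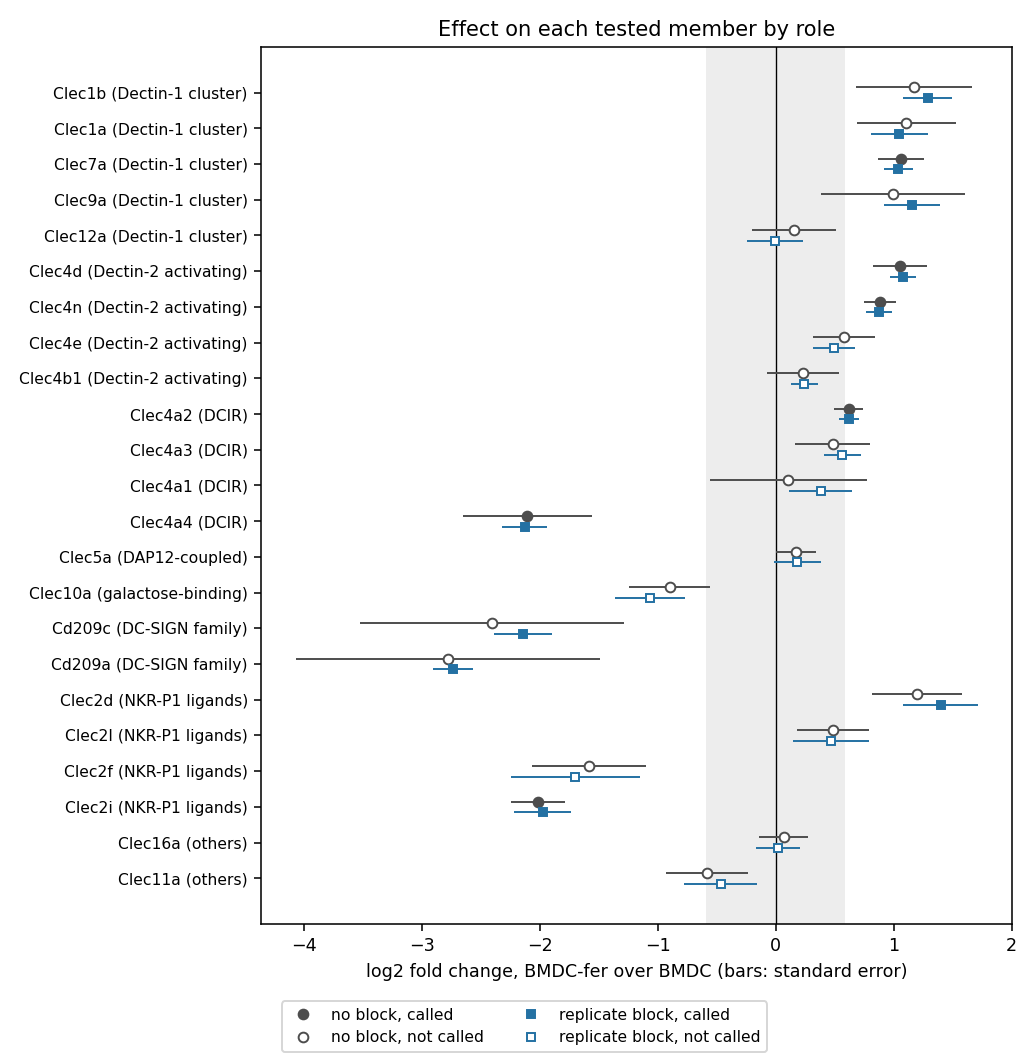
Log2 fold change of BMDC-fer over BMDC with its standard error for the 23 tested members grouped by role, without the replicate block (circles) and with it (squares), filled where called; the grey band is the range under the fold change threshold of 0.58. The bars of Cd209a, Cd209c, Clec9a and Clec1b are shorter with the block, and their position changes little.

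Over the 23 tested members the libraries of the groups did not overlap for 8, of which 5 were higher and 3 lower in BMDC-fer, beside 22.9% of all tested genes (11.3% and 11.6%). Within replicates 1 and 2, 14 members were called, 9 higher and 5 lower, against 22.3% of all tested genes (9.36% and 12.9%). Within replicates 3 and 4 it was 15, 10 higher and 5 lower, against 33.0% (16.8% and 16.2%). Called in both sets in the same direction were 11 members, against 8.99% of all tested genes, and 19 of 23 had the same sign in both, as did 60.4% of all tested genes. For 8 of the 23 the effect was not the same in each set by the interaction term, where 37.8% of all tested genes differed, which is a share near that of all genes. These 8 were Clec2d, Clec10a, Clec12a, Clec4a1, Clec2i, Clec5a, Clec4e and Clec16a. The labels do not say what sets these replicates apart.

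**Figure D5:**
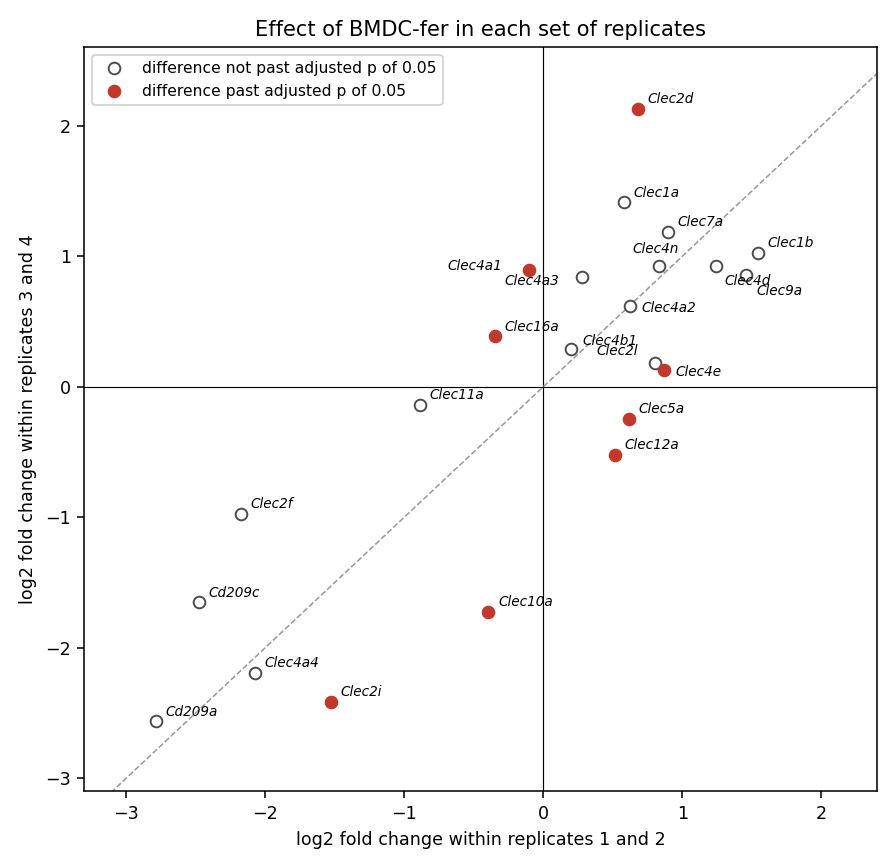
Each point is a tested member, with the log2 fold change within replicates 1 and 2 on the x axis and within replicates 3 and 4 on the y axis; filled points are the 8 members whose effect differed (interaction term in edgeR past 0.05) and the dashed line marks equal effects. Clec4n, Clec4a2 and Clec4a4 lie on or near the line, and Clec5a, Clec12a, Clec16a and Clec4a1 lie in the quadrants of opposite sign.

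The 16 members that did not pass the filter had at most 31 counts in any library. Clec14a, Clec2h and Clec3a had 0 counts in all 8 libraries, where 3 counts correspond to between 0.0607 and 0.0785 CPM, so a level under that could not be detected (counting error only). Of the others, Cd209e, Cd209f, Cd209g, Clec18a, Clec2e, Clec3b, Clec4f and Clec4g had at most 5 counts per library. Cd209b, Clec12b, Clec2g and Clec4b2 had at most 18. In an edgeR fit without the filter none of the 16 had an adjusted p under 0.106 (Benjamini-Hochberg adjustment).

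Of all tested genes 9.38% were called, or 13.0% with the replicate block. Among 22 genes of C-type lectin signalling, all of which were tested, 0 rose and 1 fell, and 0 were called with the block. That gene was Egr3, a transcription factor downstream of Syk and NFAT, at 16.9 CPM in untreated BMDC and 7.38 CPM in BMDC-fer (log2 fold change -1.20, BH-adjusted p = 0.0475, and 0.0783 with the replicate block), and it lost its call on leaving out any of 7 libraries. The shared chain Fcer1g averaged 557 ± 131 CPM in untreated BMDC and 792 ± 108 CPM in BMDC-fer (mean ± SD of 4 libraries, log2 fold change 0.51, BH-adjusted p = 0.111), Syk 401 ± 91.6 CPM and 367 ± 22.5 CPM (-0.13, 0.625), and Card9 103 and 107 CPM (0.06, 0.876). Bcl10 was 89.9 CPM in untreated BMDC and 57.6 CPM in BMDC-fer, with every BMDC-fer library below every BMDC library. It was not called in edgeR (log2 fold change -0.64, BH-adjusted p = 0.0545) and was called by DESeq2 (adjusted p = 0.0244). Malt1 was 323 and 232 CPM (-0.47, BH-adjusted p = 0.245 in edgeR). Ptpn6, the phosphatase of inhibitory members, was 226 CPM and 219 CPM. Of the 22 genes 9 had a log2 fold change above 0 and 13 below 0. The median log2 fold change of the list was -0.08. For 15 of the 22 the effect differed between the sets of replicates by the interaction term, where 37.8% of all tested genes differed. Fcer1g was at 0.99 within replicates 1 and 2 (BH-adjusted p = 0.000106) against 0.07 within replicates 3 and 4 (0.528), with 0.000700 for the difference. Egr3 was at -0.40 against -2.12 (0.000622 for the difference), Card9 at -0.31 against 0.52 (0.00525), Syk at 0.12 against -0.33 (0.0186) and Ptpn6 at -0.21 against 0.23 (0.00816). Bcl10 was at -0.18 against -1.04 (0.000928) and Malt1 at 0.18 against -1.17 (0.000638).

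Of 20 further C-type lectin genes outside the naming rule, 16 were tested, and 1 was induced and 3 were repressed, against 3.47% and 5.91% of all tested genes. With the replicate block 12 of the 16 were called, 3 higher and 9 lower, against 13.0% of all tested genes (4.85% and 8.13%). The additional genes were Thbd and Colec12 (higher) and Mgl2, Asgr2, Cd72, Klrd1, Klrb1b and Klrb1f (lower). Olr1, the receptor for oxidised low-density lipoprotein LOX-1, rose from 19.1 to 47.8 CPM (log2 fold change 1.32, BH-adjusted p = 0.0470). Ly75, the antigen uptake receptor DEC-205, fell from 24.4 to 12.6 CPM (-0.95, adjusted p = 0.00655), Cd69 from 27.1 to 12.5 CPM (-1.11, adjusted p = 0.0358) and Klrk1, which encodes NKG2D, from 9.74 to 2.16 CPM (-2.16, adjusted p = 0.0418). Of these, Ly75 kept its call in each fit that left out 1 library, while Olr1, Cd69 and Klrk1 lost theirs in 7, 6 and 7 of the 8. The effect on Cd69 was -0.67 within replicates 1 and 2 against -1.70 within replicates 3 and 4 (BH-adjusted p of the difference 0.0131). Mrc1, the mannose receptor, was not called, at 248 and 342 CPM (log2 fold change 0.46, BH-adjusted p = 0.551).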

How the data were processed

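RNA was sequenced in 4 libraries of untreated BMDC and 4 libraries of BMDC-fer, and BMDC-fer were sorted with cargo of human Jurkat cells. The paper reports counts on the mouse and on the human genome, with later steps on the mouse data only. Whether reads from the cargo were counted in mouse genes was not tested. The authors aligned the reads by HISAT2, assigned them to genes by featureCounts and deposited raw counts; the submitters' processing notes name mm10. The annotation release and the settings for strand and for reads with several positions are not given in the sources used here. The libraries had total counts between 39326672 and 50532209.

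Identifiers were matched to symbols in GENCODE M21 (GRCm38), which gave 55227 of 55487 a symbol. A gene was kept as a member when GENCODE M21 or RefSeq (GRCm38.p6) lists it as protein-coding, since GENCODE M21 lists Clec7a and Clec2f as pseudogenes. The tests used edgeR 4.0.16 under R 4.3.3 (TMM normalization, filterByExpr with a count minimum of 10, quasi-likelihood test, Benjamini-Hochberg adjustment over all 15411 tested genes). Calls needed a BH-adjusted p up to 0.05 together with a log2 change of at least 0.58 either way. CPM are counts scaled to TMM-normalized library size, and 3 counts were taken as the floor, for counting error only.

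After subtraction of group means, same-numbered BMDC and BMDC-fer libraries had an r across genes between 0.313 and 0.445. For libraries of the same set with different numbers it was 0.186 to 0.379, and for different sets -0.387 to -0.278. The first 2 ranges overlap, so r shows the sets of replicates and does not establish pairs by number. The block by replicate number therefore rests on an assumed pairing. Blocked values are given for members where they change a call, and as counts for the gene lists. Libraries are separate samples in the labels, and p-values of the fits without sets or block measure the spread between these samples. Those within a set, and those of the difference between sets, measure only the spread between libraries of the same set and group. They do not measure how much sets of replicates vary. All libraries of a group differed by more than counting noise. Alternatives were DESeq2 1.42.0, other normalizations and filters, the block, each library left out, and effects within replicates 1 and 2 and within replicates 3 and 4. Tested on simulated data, the BMDC-fer against BMDC comparison (15140 genes, 194 of them changed) recovered 70.6% and made 3 false calls. With the replicate block it recovered 61.9% and made 4 false calls. The test of the difference between sets recovered 26.4% of 197 changed genes with 1 false call, so it can miss real differences. The simulated libraries were drawn without the split between sets of replicates, so these shares may not hold for the real libraries. Members, lists and tests were chosen with earlier results of these data known. Named with every library's value are the called members and the members with a mean of at least 10 CPM; the other tested members are named with group means. From the lists of signalling genes and further lectins the called genes are named. Cd209a with its value in every library, and Fcer1g, Syk, Card9, Bcl10, Malt1, Ptpn6, Klrb1b, Klrb1f, Mrc1, Mmp8 and the other markers named with values, fall outside this rule and were chosen after their values were seen.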

Additional observations from a re-analysis of the deposited data

Results flagged for a closer look

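For 8 of the 23 tested members the log2 fold change of BMDC-fer over BMDC differed between replicates 3 and 4 and replicates 1 and 2, by edgeR's test of the difference itself. Replicates 3 and 4 minus replicates 1 and 2, the effect was larger by 1.45 for Clec2d, 1.00 for Clec4a1 and 0.73 for Clec16a. It was lower for Clec10a (-1.33), Clec12a (-1.03), Clec2i (-0.88), Clec5a (-0.86) and Clec4e (-0.74). Such a difference was also found for 37.8% of all tested genes. For Clec2i, Clec2d, Clec10a and Clec4e the sign was the same in both sets, and for Clec12a, Clec5a, Clec16a and Clec4a1 it was opposite. The labels give no batch for these sets, and the cause was not tested.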

How the results depend on the processing

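The number of members called was 6, and it was 12 with the replicate block, 14 within replicates 1 and 2, 15 within replicates 3 and 4 and between 3 and 6 when 1 library was left out, with 3 in the fit without BMDC-fer replicate 4. The number of genes called was 1445, and it was 2414 with DESeq2, 3435 and 5092 within the sets of replicates and between 565 and 1440 when 1 library was left out, with 565 in the fit without BMDC-fer replicate 4. Of the signalling genes 1 was called, against 0 with upper quartile normalization and with the replicate block, 2 with a count minimum of 50 and with DESeq2, 5 and 6 within the sets of replicates, and 0 to 1 when 1 library was left out. The log2 fold change of Clec12a turned to -0.0030 with the replicate block and to -0.52 within replicates 3 and 4, and lay between -0.082 and 0.38 when 1 library was left out. That of Clec16a turned to -0.35 within replicates 1 and 2 (-0.094 to 0.21 when 1 library was left out), that of Clec4a1 to -0.10 within replicates 1 and 2 (-0.25 to 0.67), and that of Clec5a to -0.25 within replicates 3 and 4. None of these 4 members was called over all libraries, and the causes were not tested. Effects within a set of replicates rest on 2 libraries per group. They come from 1 fit over all libraries, so their p-values use an estimate of spread pooled over both sets. Genes at or under 3 counts in every library were read as at the floor.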
